A study of Rattus norvegicus with 35 samples.

Results

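The 4 genes described here, Thrb, Thra, Dio1 and Thrsp, make up a thyroid hormone receptor axis in rat liver. They were chosen by gene symbol and stand among 13439 genes measured with a probe set of a single symbol. They were read by 9 of the 19069 such probe sets: 2 for Thrb, 3 for Thra, 1 for Dio1 and 3 for Thrsp. A low level of Thrb in control rats after hemorrhage was known from these data when the genes were proposed, so that contrast is described for them without a test.

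Liver RNA was measured on 35 single-colour arrays, taken here as 1 array per rat, and is given as normalized log2 signal. Control sham rats (n = 5) had an unligated bile duct and a sham hemorrhage/resuscitation procedure, and control H/R rats (n = 6) were bled and resuscitated. Ligated sham (n = 5) and ligated H/R rats (n = 6) had secondary biliary cirrhosis, made by tying and cutting out part of the common bile duct, and were studied 4 weeks later. Simvastatin sham (n = 5) and simvastatin H/R rats (n = 8) were also ligated and had simvastatin by gavage, 5 mg/kg a day from 3 days before the study, with the last dose 1 h before it. The labels describe weekly vitamin K injections together with the ligation, and do not say whether rats without simvastatin had vehicle gavage. Strain, age, sex and the separate origin of each sample are not given there, so p-values reflect only the spread among the samples of a group.

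Thyroid hormone circulates mostly as the prohormone thyroxine. Deiodinase 1, the selenoprotein encoded by Dio1, removes an iodine from it and is abundant in liver and kidney. The active hormone binds nuclear receptors encoded by Thrb and Thra, which sit on DNA with retinoid X receptors and exchange corepressors for coactivators. Thrb is known as the main receptor isoform gene of hepatocytes, while Thra dominates in heart, bone and other tissues. Thrsp, also called Spot 14, is a classical hormone-induced liver gene that promotes fatty acid synthesis, and Dio1 is itself induced by the hormone.

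The start-site windows of Thrb, Dio1 and Thrsp are shown to set the receptor gene beside the deiodinase and the target gene. RefSeq sequence was found for all 4 genes (build GRCr8), 250 bases before to 50 after an annotated start, and each is printed 5′ to 3′ on the gene's strand. Capitals mark matches to any of 6 motifs on either strand. They were the core element bound by the receptors (AGGTCA), its direct repeat with a spacer of 4 bases (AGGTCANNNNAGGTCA, which contains the core element), the TATA element (TATAAA), the CCAAT element, the E-box CACGTG and the GC-box motif GGGCGG. The windows are Thrb at chr15:10461397-10461696, Dio1 at chr5:127319735-127320034 and Thrsp at chr1:161138915-161139214, all on the minus strand.
Thrb: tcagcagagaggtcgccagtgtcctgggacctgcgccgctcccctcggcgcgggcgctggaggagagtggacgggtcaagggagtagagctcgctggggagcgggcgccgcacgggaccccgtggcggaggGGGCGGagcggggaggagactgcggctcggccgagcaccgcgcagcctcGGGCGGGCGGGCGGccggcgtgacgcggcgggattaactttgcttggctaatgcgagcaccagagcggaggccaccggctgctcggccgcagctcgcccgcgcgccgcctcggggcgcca
Dio1: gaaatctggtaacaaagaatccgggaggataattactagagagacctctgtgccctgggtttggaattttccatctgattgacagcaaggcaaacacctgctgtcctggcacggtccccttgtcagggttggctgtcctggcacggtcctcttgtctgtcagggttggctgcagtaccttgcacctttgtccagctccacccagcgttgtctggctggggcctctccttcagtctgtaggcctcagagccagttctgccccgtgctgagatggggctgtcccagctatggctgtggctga
Thrsp: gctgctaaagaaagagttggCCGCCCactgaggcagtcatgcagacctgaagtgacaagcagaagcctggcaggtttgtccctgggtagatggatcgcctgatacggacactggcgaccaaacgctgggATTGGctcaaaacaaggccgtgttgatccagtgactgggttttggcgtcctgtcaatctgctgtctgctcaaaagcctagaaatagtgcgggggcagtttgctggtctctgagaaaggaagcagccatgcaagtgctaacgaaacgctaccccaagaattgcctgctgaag

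The Thrb window held 4 GGGCGG matches, at -119, -70, -66 and -62 from the start, the last 3 overlapping, and 76.0% of its bases were G or C. Thrsp had CCAAT on the reverse strand at -121 and GGGCGG on the reverse strand at -230. Dio1 had no match to any of the 6 in this window. AGGTCA was in none of the 3 windows and is found in 16.2% of 33469 promoter windows of this length. Its direct repeat is in 2 of those windows (0.00598%). GGGCGG is in 33.1% of them, CCAAT in 37.5%, TATAAA in 14.2% and CACGTG in 6.42%. Thra has 2 windows in the table, of which the first held 5 GGGCGG matches and the second none of the motifs. Absence of these letters says nothing about binding outside the windows.

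Background was the group mean of the brightest of the 23 nonspecific probe sets of the array. A gene counted as above it in a group where at least 1 of its probe sets had a higher group mean. That background was itself lower in ligated livers. Its group means were 4.51 in control sham, 4.59 in control H/R, 3.64 in ligated sham, 4.00 in ligated H/R, 3.26 in simvastatin sham and 3.32 in simvastatin H/R. On this basis Thrb was not above background in 4 of the 6 groups, and Thra, Dio1 and Thrsp were above it in all 6. Thra exceeded it by only 0.36 in control sham and 0.22 in control H/R rats, less than the SD of that background (0.41 and 0.39).

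**Figure D1:**
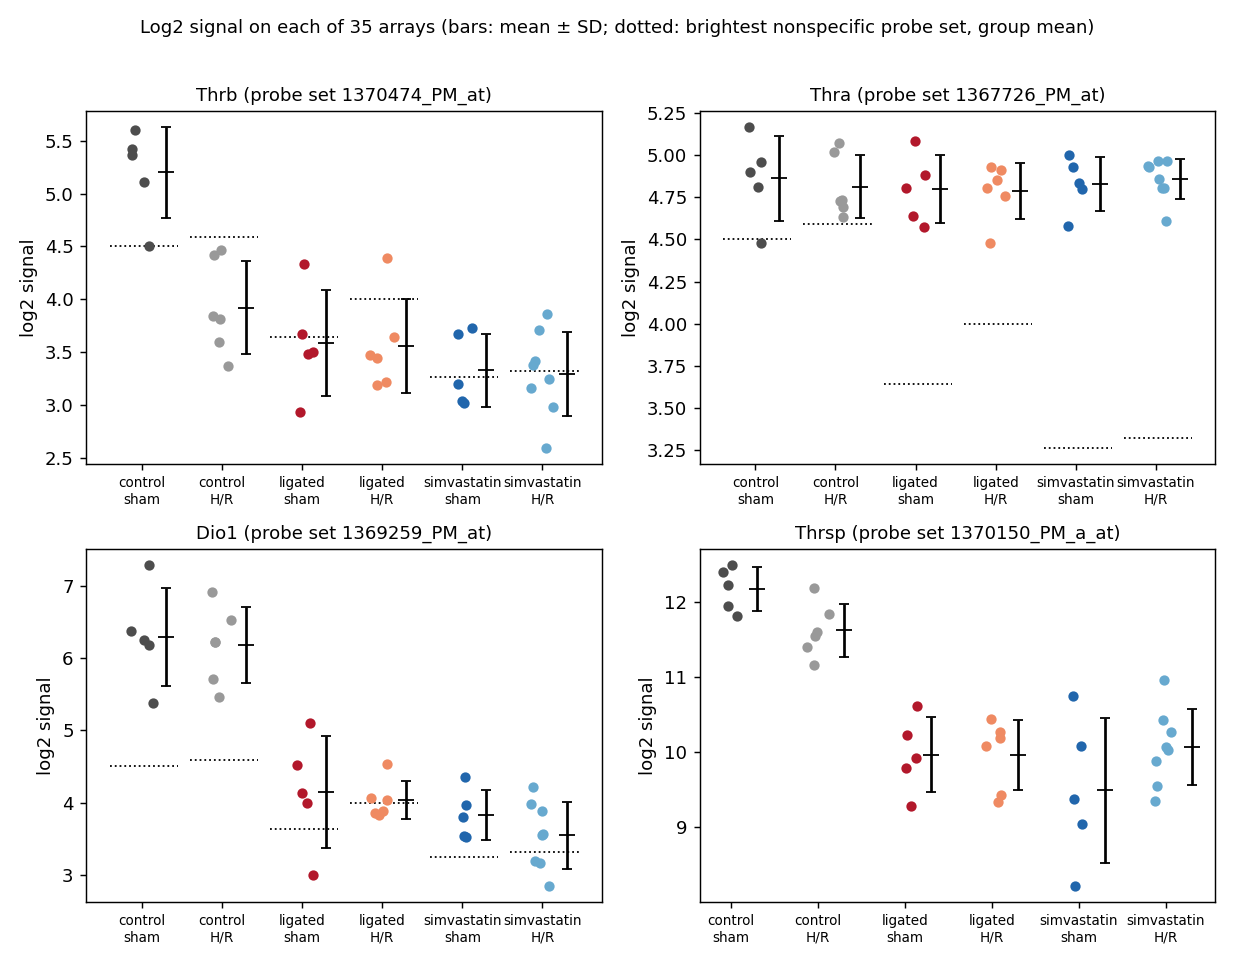
Log2 signal of Thrb, Thra, Dio1 and Thrsp on each of 35 arrays in 6 groups (points), with the group mean ± SD beside them (bars) and, for the 3 dimmer genes, the group mean of the brightest nonspecific probe set (dotted). Thrb was clearly above the dotted line in control sham rats, with a mean of 5.20 against 4.51, while Dio1 and Thrsp were high in both control groups. The vertical axes differ between panels.

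Thrb, the receptor beta gene, was above the brightest nonspecific probe set mainly in control sham liver. This depends on the background chosen. With the median or, chosen after seeing the data, the second brightest nonspecific probe set, 0 groups were not above it. On its brighter probe set (1370474_PM_at) the 5 control sham arrays read 5.42, 5.60, 4.50, 5.11 and 5.37, and 4 of them exceeded their own array's brightest nonspecific probe set. The 6 control H/R arrays ran from 3.37 to 4.46 with a median of 3.83, and 1 of them exceeded it. These groups did not overlap, although the lowest control sham array and the highest control H/R array lay close together.

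Ligated sham arrays read 3.67, 2.93, 4.34, 3.49 and 3.50 for Thrb, with 2 of 5 above their own background. Ligated H/R arrays ran from 3.19 to 4.39 (median 3.46), with 0 of 6 above it. Simvastatin sham arrays read 3.20, 3.67, 3.72, 3.02 and 3.03, with 3 of 5 above it, and simvastatin H/R arrays ran from 2.59 to 3.86 (median 3.31), with 5 of 8 above it. The groups not above background were control H/R, ligated sham, ligated H/R and simvastatin H/R, and simvastatin sham stood above it by 0.07 on the log2 scale. All 35 arrays were above their own median nonspecific probe set.

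In order, the Thrb means were control sham (5.20 ± 0.43, SD), control H/R (3.92 ± 0.44), ligated sham (3.59 ± 0.50), ligated H/R (3.56 ± 0.44), simvastatin sham (3.33 ± 0.34) and simvastatin H/R (3.29 ± 0.40). Only the first step in this order, of 1.28, separated groups whose arrays did not overlap. Control H/R was lower than control sham by a log2 difference of -1.28 ± 0.25 (SE), at least 1.49-fold lower when the dim arrays are held at their background. Ligated sham was lower than control sham by -1.61 ± 0.26, at least 2.43-fold on the same basis. These bounds allow for background only, which differed between groups, and not for the spread among arrays. Both contrasts are descriptions, since they share the control sham arrays on which the gene's pattern was noticed. Among all genes, arrays did not overlap in the lower direction for 1.25% in the hemorrhage contrast and 13.3% in the ligation contrast.

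Contrasts of Thrb without control sham arrays showed no difference past the threshold (limma, adjusted p under 0.05 over 13439 genes). Ligated H/R was below control H/R by -0.36 ± 0.24 (limma adjusted p = 0.21), with both groups at background. Hemorrhage gave Thrb -0.03 ± 0.25 in ligated rats (95% interval -0.53 to 0.47, limma adjusted p = 0.99) and -0.04 ± 0.23 in simvastatin rats (limma adjusted p = 0.99). Simvastatin gave -0.26 ± 0.26 in sham rats and -0.26 ± 0.22 in H/R rats (limma adjusted p = 0.76 and 0.64). The hemorrhage difference in ligated rats minus that in control rats was 1.25 ± 0.35. It is a description without a test, since it contains the control contrast in which the gene's pattern was noticed, and both ligated groups were at background.

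The second Thrb probe set (1387983_PM_at) had group means from 2.51 to 3.02, was above no array's brightest nonspecific probe set, and overlapped between all groups compared. Its differences had the same sign as the first in both control sham contrasts, -0.38 for ligation and -0.28 for hemorrhage.

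Thra, the receptor alpha gene, was nearly level on its brightest probe set (1367726_PM_at). Control sham arrays read 4.81, 4.90, 4.48, 4.96 and 5.17, and control H/R arrays ran from 4.63 to 5.08 (median 4.73). Ligated sham arrays read 4.89, 4.81, 4.57, 4.64 and 5.08, and ligated H/R arrays ran from 4.48 to 4.93 (median 4.83). Simvastatin sham arrays read 4.93, 4.84, 5.00, 4.58 and 4.80, and simvastatin H/R arrays ran from 4.61 to 4.97 (median 4.89). Every neighbouring pair of groups overlapped, and the 6 means lay between 4.79 and 4.86. In the controls 3 of 5 sham and 4 of 6 H/R arrays exceeded their own brightest nonspecific probe set, and all arrays of the ligated groups did.

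Ligation gave Thra a log2 difference of -0.07 ± 0.12 in sham rats (95% interval -0.31 to 0.18, limma adjusted p = 0.67) and -0.03 ± 0.11 in H/R rats (95% interval -0.25 to 0.20, limma adjusted p = 0.87). These values depend on the scaling: after a further quantile normalization they were -0.37 and -0.29, with limma adjusted p of 0.013 and 0.032, and over the mean of the 3 probe sets they were 0.11 and 0.15, so no direction is given. No hemorrhage or simvastatin contrast of Thra that was tested passed the threshold.

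The Thra probe sets disagreed. 1370691_PM_a_at read 3.84 to 4.49 in control sham and 4.54 to 5.00 in ligated sham arrays, which did not overlap, a log2 difference of 0.53 (18.8% of all genes were higher without overlap there). In H/R rats the same probe set was higher after ligation by 0.58, with overlap. It was not above background in either control group and was above it in all 4 ligated groups. The third, 1380518_PM_s_at, stayed at group means from 1.93 to 2.11, under the median nonspecific probe set in every group. The annotation places Med24 and Nr1d1 over the Thra locus, and which strand each probe set reads was not checked.

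Dio1, the deiodinase gene, was high in both control groups and low in all 4 ligated groups. Control sham arrays read 6.25, 5.38, 6.18, 7.28 and 6.37 (mean 6.29 ± 0.68), and control H/R arrays ran from 5.46 to 6.91 with a median of 6.22 (mean 6.17 ± 0.53). Ligated sham arrays read 4.52, 4.14, 5.10, 3.01 and 4.00 (mean 4.15 ± 0.77), and ligated H/R arrays ran from 3.84 to 4.54 with a median of 3.97 (mean 4.04 ± 0.26). Every ligated array lay below every control array, a lack of overlap seen in 13.3% of all genes in sham rats and 8.94% in H/R rats, in the lower direction.

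Under simvastatin, sham arrays read 4.36, 3.52, 3.97, 3.80 and 3.54 for Dio1 (mean 3.84 ± 0.34), and H/R arrays ran from 2.86 to 4.22 with a median of 3.56 (mean 3.56 ± 0.46). All 11 control arrays exceeded their own brightest nonspecific probe set. In the ligated groups this held for 3 of 5 ligated sham, 4 of 6 ligated H/R, 5 of 5 simvastatin sham and 5 of 8 simvastatin H/R arrays. The ligated H/R mean was above background by 0.04, so its fold rests on signal close to that level.

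Dio1 fell with ligation by 2.14 ± 0.31 on the log2 scale in sham rats, 4.40-fold (limma adjusted p = 9.9e-07), and by 2.13 ± 0.29 in H/R rats, 4.38-fold (limma adjusted p = 2.0e-07). The sham and H/R contrasts share no arrays. Of all genes, 22.4% were called lower in the sham contrast and 22.3% in the H/R contrast, so being called is common here. The number ending of the sample titles, whose meaning the labels do not give, was shared by no control and ligated array of either contrast, so it and ligation cannot be told apart. Hemorrhage gave Dio1 -0.12 ± 0.30 in control rats, a description, -0.11 ± 0.30 in ligated rats and -0.28 ± 0.28 in simvastatin rats (limma adjusted p = 0.95 and 0.92 for the last pair). Simvastatin gave -0.31 ± 0.31 in sham rats and -0.49 ± 0.27 in H/R rats (95% interval -1.03 to 0.06), which did not pass (limma adjusted p = 0.76 and 0.42).

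Thrsp, the hormone-induced lipogenic gene, was among the bright signals of control liver and was lower in ligated liver. On probe set 1370150_PM_a_at control sham arrays read 12.50, 12.41, 11.81, 11.95 and 12.23 (mean 12.18 ± 0.29), and control H/R arrays ran from 11.17 to 12.20 with a median of 11.58 (mean 11.63 ± 0.36). Ligated sham arrays read 9.79, 9.92, 10.23, 9.29 and 10.62 (mean 9.97 ± 0.50), and ligated H/R arrays ran from 9.33 to 10.45 with a median of 10.14 (mean 9.96 ± 0.46). Control and ligated arrays did not overlap. Over all genes this held in the lower direction for 13.3% in sham rats and 8.94% in H/R rats.

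Simvastatin sham arrays read 8.22, 10.75, 10.08, 9.38 and 9.04 for Thrsp (mean 9.49 ± 0.97), the widest spread of the 6 groups. Simvastatin H/R arrays ran from 9.35 to 10.96 with a median of 10.05 (mean 10.07 ± 0.50). The lowest simvastatin sham array, at 8.22, read 9.46 on probe set 1371400_PM_at and 7.14 on the third, 1387852_PM_at. All 35 arrays lay far above background for each Thrsp probe set.

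Thrsp fell with ligation by 2.21 ± 0.33 on the log2 scale in sham rats, 4.63-fold (limma adjusted p = 1.1e-06), and by 1.67 ± 0.30 in H/R rats, 3.18-fold (limma adjusted p = 2.2e-05). The other probe sets gave -2.20 and -2.65 in sham rats and -1.61 and -1.99 in H/R rats, each without overlap. Being called lower was common, at 22.4% of all genes in sham and 22.3% in H/R rats. As for Dio1, the number ending of the sample titles and ligation cannot be told apart. In control rats hemorrhage was accompanied by -0.55 ± 0.31, a description, with overlapping arrays. Hemorrhage gave -0.01 ± 0.31 in ligated rats and 0.58 ± 0.29 in simvastatin rats (limma adjusted p = 1.00 and 0.89), and the latter was 0.25 on 1371400_PM_at. It was 0.26 without simvastatin sham replicate 1 and 0.89 without simvastatin sham replicate 2. Simvastatin gave -0.48 ± 0.33 in sham rats and 0.11 ± 0.28 in H/R rats (limma adjusted p = 0.63 and 0.90), and the former was -0.16 and -0.79 without the same arrays in that order.

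**Figure D2:**
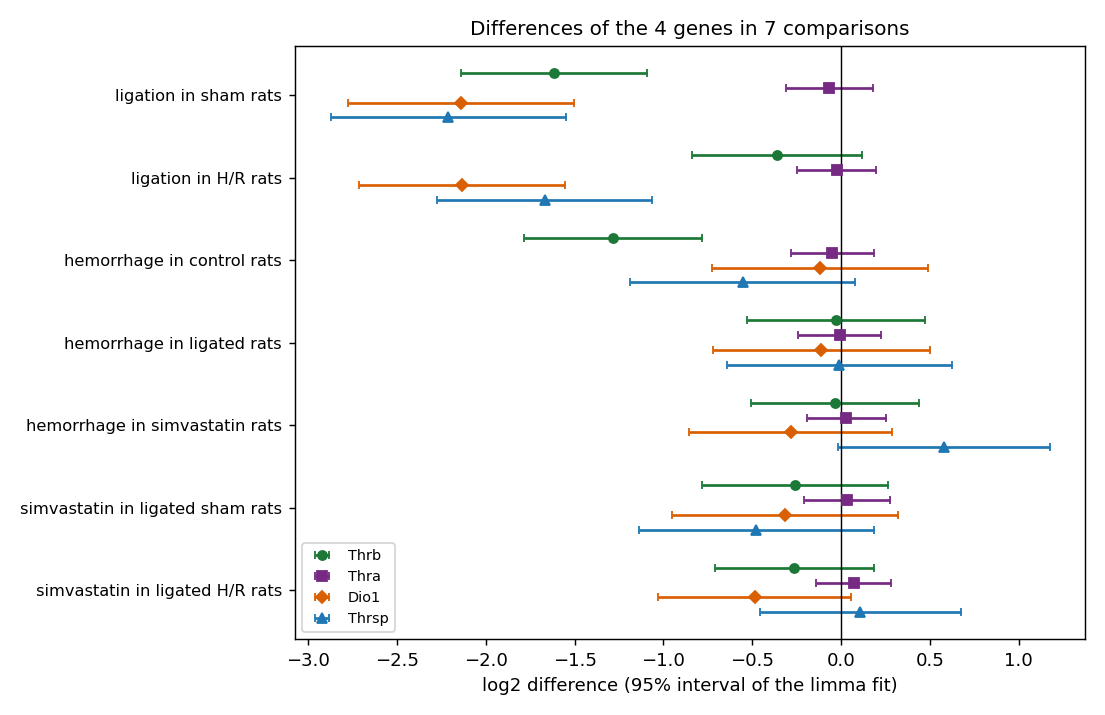
Log2 differences of Thrb, Thra, Dio1 and Thrsp in 7 comparisons (horizontal axis), with 95% intervals of the limma fit over 35 arrays. Dio1 and Thrsp lay below 0 after ligation in sham rats (-2.14 and -2.21) and in H/R rats (-2.13 and -1.67), whereas Thra stayed within 0.07 of 0. Thrb was far below 0 only in the contrasts with control sham rats (-1.61 and -1.28), which are descriptions, so their intervals are not tests.

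The hemorrhage effect in simvastatin rats minus that in ligated rats without it was -0.01 ± 0.34 for Thrb, 0.04 ± 0.16 for Thra, -0.17 ± 0.41 for Dio1 and 0.59 ± 0.43 for Thrsp. None passed (limma adjusted p of 1.00 for each of the 4, unadjusted p from 0.18 to 0.99), in a comparison where 0.00744% of all genes were called. The 95% interval for Thrsp ran from -0.28 to 1.46.

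Other cell types changed with ligation in the same samples. The cholangiocyte markers averaged 4.36 to 5.29 over control sham and 8.05 to 9.12 over ligated sham arrays, and 7 of 8 rose with ligation in sham and in H/R rats. Krt7 was not above background in the controls, and Sox9, which was not called, was not above it in any group. Stellate cell and myofibroblast markers averaged 5.55 to 5.88 against 6.92 to 8.22, and 9 of 9 rose in sham and 8 of 9 in H/R rats, with Col1a1, Des and Lum not above background in the controls. Hepatocyte markers averaged 12.36 to 12.45 against 11.92 to 12.29, and 4 of 9 fell in sham and 5 of 9 in H/R rats. Macrophage markers had 3 of 6 higher and 1 lower in sham rats, endothelial markers 1 of 5 higher and 2 lower, and neutrophil (3) and red cell (1) markers 0 in either direction. In H/R rats macrophage markers had 4 higher and 0 lower, endothelial markers 1 higher and 0 lower, and neutrophil and red cell markers again 0. The red cell marker, Alas2, and the neutrophil marker Cxcr2 were not above background in any group, so the red cell count rests on no detected gene. Among all genes measured, 25.3% were called higher and 22.4% lower in sham rats, and 24.7% and 22.3% in H/R rats. In the H/R and simvastatin groups cholangiocyte markers averaged 4.53 to 5.69 in control H/R, 8.12 to 8.96 in ligated H/R, 8.47 to 9.33 in simvastatin sham and 8.05 to 9.33 in simvastatin H/R arrays. Hepatocyte markers averaged 12.34 to 12.50, 11.65 to 12.21, 11.57 to 12.12 and 11.90 to 12.25 in the same order. In these bulk samples fewer cells of a type and less RNA per cell cannot be told apart, and the part of these shifts in the levels of Dio1, Thrsp and Thrb was not tested. The labelled tissue is liver, and the thyroid follicular markers Tg, Tshr, Pax8 and Slc5a5 were not above background in any group.

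Of 73 further genes of thyroid hormone action on 5 lists, 66 were measured. With ligation in sham rats 8 rose and 27 fell (median log2 difference -0.29, against -0.04 over all genes), and in H/R rats 10 rose and 27 fell (median -0.31 against -0.03). Over all genes 25.3% were called higher and 22.4% lower in sham rats, and 24.7% and 22.3% in H/R rats. The counts of each list below are to be read beside these shares. Of the pathway genes 29 were called in the same direction in both, which is 82.9% of the 35 called in sham and 78.4% of the 37 called in H/R rats. The same shares over all genes were 77.0% and 78.1%.

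Of receptor partners and coregulators (16 measured) 5 rose, 2 fell and 9 did not pass in sham rats. In H/R rats 6 rose, 2 fell and 8 did not pass. The shares of all genes called higher were 25.3% and 24.7%, and lower 22.4% and 22.3%, in the same order. Ncoa3, a steroid receptor coactivator, rose by a log2 difference of 0.99 ± 0.12 in sham rats (limma adjusted p = 1.5e-08) and 0.75 ± 0.11 in H/R rats (limma adjusted p = 4.5e-07). Tbl1x, a subunit of the corepressor complex, rose by 0.80 ± 0.18 and 0.57 ± 0.16, and the acetyltransferase gene Ep300 by 0.62 ± 0.15 and 0.69 ± 0.14. Ncoa2, another coactivator, was called lower (-0.74 ± 0.15 and -0.43 ± 0.14) with neither group above background. Tbl1xr1, which encodes a protein related to that of Tbl1x, rose by 0.61 ± 0.15 in H/R rats (limma adjusted p = 0.00078) and gave 0.37 ± 0.16 in sham rats (limma adjusted p = 0.053). Crebbp, an acetyltransferase gene like Ep300, was called higher in H/R rats at 0.37 ± 0.12 (limma adjusted p = 0.0096), a call lost after centring on array medians and over the mean of its probe sets (limma adjusted p = 0.13 and 0.65). The remaining calls in sham rats were Ncoa6 (0.42 ± 0.11) and Gps2 (0.31 ± 0.12), both higher, and Rxrg, lower by -0.74 ± 0.30, which is named to complete the count. Ncoa6 did not keep its direction when its probe sets were averaged (-0.02, limma adjusted p = 0.91) and lost its call after centring (limma adjusted p = 0.086). Tbl1x lost its call over the mean of its probe sets in sham rats (limma adjusted p = 0.27) and in H/R rats (limma adjusted p = 0.0501). Gps2 lost its call without control sham replicate 3 or 4 or ligated sham replicate 1 or 5 (limma adjusted p 0.069 to 0.12), after either rescaling, and with only the groups compared (limma adjusted p = 0.083). Rxrg in sham rats lost it without control sham replicate 1, 2, 4 or 5 or ligated sham replicate 2, 4 or 5 (limma adjusted p 0.053 to 0.15) or over the mean of its probe sets (limma adjusted p = 0.053), and in H/R rats, at -0.81 ± 0.27, without control H/R replicate 5 (limma adjusted p = 0.051). Ncor1, named to complete the count in H/R rats, was called higher there at 0.28 ± 0.11 (limma adjusted p = 0.035). It lost its call with only the groups compared, after either rescaling and over the mean of its probe sets (limma adjusted p 0.060 to 0.33). The call was also lost without control H/R replicate 1 or 6 or ligated H/R replicate 1 or 3 (limma adjusted p 0.052 to 0.10). Rxra, the main hepatic partner of the receptors, was not above background on its probe set in any group.

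Among genes of deiodination and iodide handling (8 measured) 0 rose and 4 fell in each contrast. Sepsecs, which makes the selenocysteine carried by deiodinases, fell by 1.22 ± 0.17 on the log2 scale in sham rats (limma adjusted p = 6.9e-07) and by 1.26 ± 0.16 in H/R rats (limma adjusted p = 7.4e-08). Iyd, which recovers iodide from iodotyrosines, fell by 1.19 ± 0.29 and 1.38 ± 0.27. Sephs2, the selenophosphate synthetase, fell by 1.22 ± 0.32 in sham rats, and Secisbp2, which reads the selenocysteine insertion element, fell by 0.38 ± 0.11 in H/R rats. Eefsec, the selenocysteine elongation factor, fell by 0.58 ± 0.18 and 0.41 ± 0.17. In H/R rats the latter lost its call without control H/R replicate 2, 3, 5 or 6 or ligated H/R replicate 1, 2 or 6 (limma adjusted p 0.060 to 0.11). Dio2, the other activating deiodinase, was not above background in the controls or in ligated rats without simvastatin.

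Transport and binding genes (14 measured) were 7 lower and 0 higher in sham rats, and 8 lower and 2 higher in H/R rats. Slc3a2, the heavy chain shared by amino acid carriers that move iodothyronines, had the lowest adjusted p of the list in sham rats, where it fell by 1.04 ± 0.14 on the log2 scale (limma adjusted p = 2.9e-07), and it fell by 0.51 ± 0.13 in H/R rats (limma adjusted p = 0.0014). Slc10a1, the bile acid uptake carrier that also moves iodothyronines, fell by 2.12 ± 0.34 (limma adjusted p = 5.5e-06) and 2.14 ± 0.31 (limma adjusted p = 1.1e-06) on the log2 scale. The organic anion carriers Slco1a1, Slco1a4 and Slco1b2 fell by 1.89 ± 0.38, 1.69 ± 0.37 and 1.25 ± 0.29 in sham rats, and by 2.24 ± 0.35, 1.87 ± 0.34 and 1.18 ± 0.26 in H/R rats. Crym, which encodes a cytosolic hormone-binding protein, fell by 1.26 ± 0.33 in sham rats and 1.20 ± 0.30 in H/R rats. Serpina7, thyroxine-binding globulin, rose 6.23-fold in H/R rats (log2 difference 2.64 ± 0.46, limma adjusted p = 1.8e-05) and did not pass in sham rats. Slc7a8, an amino acid carrier, was the other gene called higher in H/R rats, at 0.44 ± 0.18 with the control group at background, and is named to complete that count. It lost its call without control H/R replicate 1, 2, 3 or 5 or ligated H/R replicate 1, 2 or 3 (limma adjusted p 0.051 to 0.14). It also lost it with only the groups compared, after quantile normalization and after centring (limma adjusted p = 0.091, 0.15 and 0.17). Ttr, transthyretin, which is also one of the hepatocyte markers, fell by 0.34 ± 0.07 in H/R rats and was called lower in sham rats too.

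Conjugation genes (4 measured) held 1 call in each contrast. Sult1e1, a sulfotransferase that acts on estrogens and iodothyronines, fell by 3.04 ± 0.74 on the log2 scale in sham rats (limma adjusted p = 0.0011) and by 2.42 ± 0.68 in H/R rats (limma adjusted p = 0.0038).

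Hormone-responsive liver genes (25 measured) were 13 lower and 3 higher in sham rats, and 12 lower and 2 higher in H/R rats. Me1, the malic enzyme that supplies NADPH for lipogenesis, fell 4.51-fold in sham rats (log2 difference -2.17 ± 0.19, limma adjusted p = 4.6e-11) and 2.01-fold in H/R rats (SE 0.18 on the log2 scale, limma adjusted p = 1.7e-05). Fasn, fatty acid synthase, was lower by -2.23 ± 0.30 and -1.79 ± 0.27, Acly, which makes cytosolic acetyl-CoA, by -1.90 ± 0.27 and -1.29 ± 0.24, and Srebf1, a lipogenic transcription factor, by -1.56 ± 0.24 and -1.55 ± 0.22. Gpd2, the mitochondrial glycerophosphate dehydrogenase, gave -1.23 ± 0.18 and -1.06 ± 0.17. Not every gene of the list was lower: Ucp2, a mitochondrial carrier, was at least 2.45-fold higher in sham rats and at least 1.94-fold higher in H/R rats, from controls at background. Cyp7a1, which encodes the first enzyme of classical bile acid synthesis, rose 5.79-fold in sham rats and 2.03-fold in H/R rats (limma adjusted p = 6.0e-06 and 0.026). In H/R rats Cyp7a1 lost its call without control H/R replicate 4 or 5 or ligated H/R replicate 5 or 6 (limma adjusted p 0.059 to 0.091) and after centring (limma adjusted p = 0.052). Hr, a hormone-induced corepressor, was called higher in sham rats (0.72 ± 0.21) from controls at background, and Cyp7a1 and Hr are named because they complete the 3 that were higher.

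**Figure D3:**
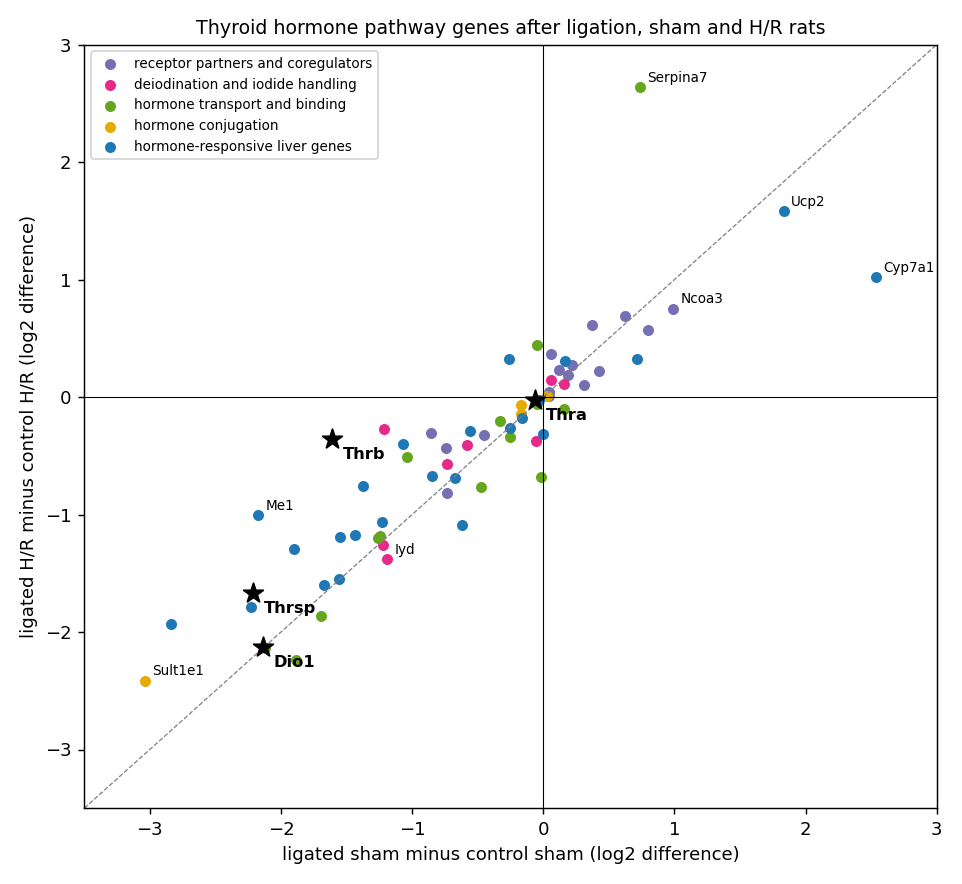
Log2 differences after ligation in sham rats (horizontal) and in H/R rats (vertical) for 66 pathway genes, coloured by list (Ppargc1a, in 2 lists, is shown once), with Thrb, Thra, Dio1 and Thrsp as black stars and equal values on the dashed line. Dio1 and Thrsp lie low on both axes near genes such as Me1, Thra lies near 0, and Thrb lies at -1.61 in sham rats and -0.36 in H/R rats. Serpina7 (2.64 in H/R rats) and Cyp7a1 stand above most of the others.

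In the remaining comparisons few pathway genes passed. Hemorrhage in control rats lowered Me1 by -1.02 ± 0.18 (limma adjusted p = 0.0040), the 1 gene of 66, where 0.856% of all genes were called. Fitted on the control arrays alone the adjusted p for Me1 was 0.074 (limma). The count of pathway genes lower was 2 without control sham replicate 3 or control H/R replicate 1. It was 3 when control H/R replicate 3 was left out. The count higher was 1 without control sham replicate 1, control H/R replicate 2 or 5, or simvastatin sham replicate 2. In ligated rats hemorrhage gave 0 of 66 in limma (8 at unadjusted p under 0.05; 0.134% of all genes called), and in simvastatin rats 0 of 66 in limma (0 at unadjusted p under 0.05; 0% of all genes). Simvastatin in sham rats gave 0 of 66 in limma (10 at unadjusted p under 0.05; 0.781% of all genes), and 1 higher without simvastatin sham replicate 4. In H/R rats 1.35% of all genes were called for simvastatin, and 2 of 66 passed: Acly was higher by 0.99 ± 0.23 (limma adjusted p = 0.018) and Slc7a8 lower by -0.64 ± 0.17 (limma adjusted p = 0.042). With the number ending of the sample titles as a block the differences were 1.29 ± 0.28 and -0.77 ± 0.22, and neither passed (limma adjusted p = 0.25 and 0.59). For the difference of hemorrhage effects, ligated minus control, 0 of 66 passed in limma (5 at unadjusted p under 0.05; 0.00744% of all genes), which is also the test of unequal ligation effects in H/R and sham rats. For simvastatin minus no simvastatin 0 of 66 passed (2 at unadjusted p under 0.05; 0.00744%). Acly lost its call without ligated H/R replicate 1 (limma adjusted p = 0.069), and Slc7a8 after quantile normalization (limma adjusted p = 0.072) and without ligated H/R replicate 1, 2 or 4 or simvastatin H/R replicate 1, 2, 5, 6, 7 or 8 (limma adjusted p 0.058 to 0.14).

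Within groups, the signals of Thrb and Thrsp varied together, although the Thrb mean was above background only in control sham and, by 0.07, simvastatin sham rats. After subtraction of each group's mean, their 35 arrays gave r = 0.63 (permutation within groups, two-sided p = 7e-05, adjusted over 18 relations 0.0013) and rho = 0.75 (permutation p = 2e-05, adjusted 0.00036). Without the 2 arrays farthest from the median of Thrb r was 0.65. The groups of at least 6 arrays all had a Thrb mean not above background. In them r was 0.70 in control H/R, 0.65 in ligated H/R and 0.96 in simvastatin H/R. In the groups of 5 arrays it was 0.89 in control sham, 0.74 in simvastatin sham and 0.22 in ligated sham (0.18 there on Thrsp probe set 1371400_PM_at). With Thrsp probe set 1371400_PM_at, tried after the data were seen, r was 0.67.

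**Figure D4:**
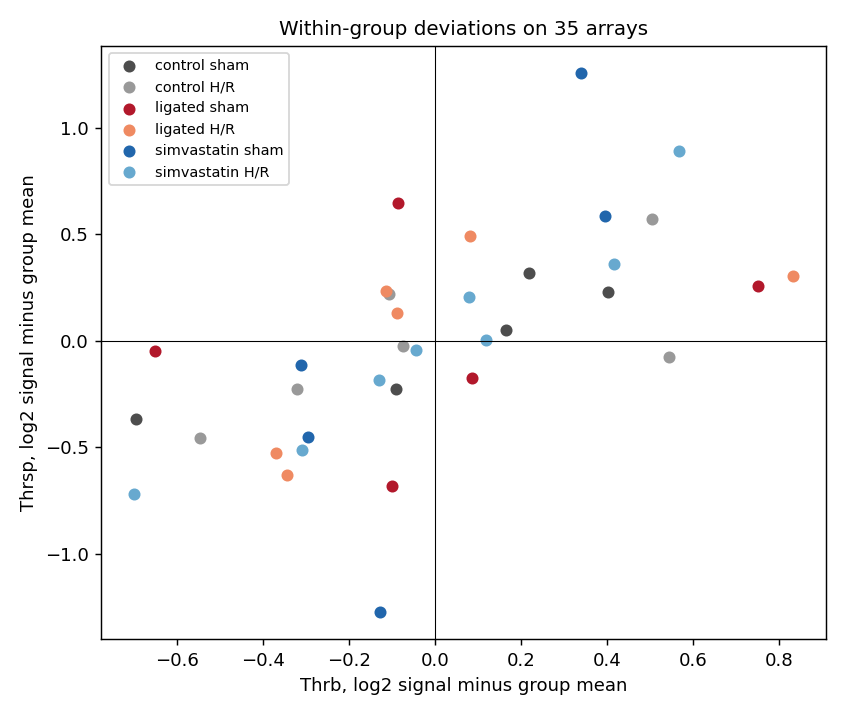
Deviation of Thrsp (vertical) against deviation of Thrb (horizontal) from the mean of their group, both in log2 signal, on 35 arrays coloured by group. Arrays above their group's mean for Thrb were mostly above it for Thrsp (r = 0.63), and 1 simvastatin sham array lies lowest, being the one that read 8.22 for Thrsp. Thrb means were not above background in control H/R, ligated sham, ligated H/R and simvastatin H/R rats.

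Marker levels moved with the same deviations, and the limit that most Thrb means were not above background holds here too. Thrb was related to the hepatocyte marker mean with r = 0.58 (permutation p = 0.00027, adjusted 0.0016; rho 0.59, permutation p = 0.00056, adjusted 0.0034; r without the 2 farthest arrays 0.51). It was related to the cholangiocyte marker mean with r = -0.63 (permutation p = 0.00021, adjusted 0.0016; rho -0.60, permutation p = 0.00039, adjusted 0.0034; r without the 2 farthest arrays -0.54). In control sham rats alone, 5 arrays, the signs were the other way, -0.64 for hepatocyte and 0.24 for cholangiocyte markers. Thrb had r = 0.14 with the brightest nonspecific probe set (permutation p = 0.48, rho 0.13 with permutation p = 0.49, r without the 2 farthest arrays 0.15; adjusted 0.61 and 0.63). Thrsp moved with the same markers, with r = 0.51 for hepatocyte markers (permutation p = 0.016, adjusted 0.056; rho 0.54, permutation p = 0.0049, adjusted 0.018; r without the 2 farthest arrays 0.49). For cholangiocyte markers Thrsp had r = -0.40 (permutation p = 0.027, adjusted 0.060; rho -0.47, permutation p = 0.0096, adjusted 0.025; r without the 2 farthest arrays -0.53). The part of cell makeup in the relation of Thrb and Thrsp was not tested.

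Dio1 was related to the cholangiocyte marker mean with r = -0.54 (permutation p = 0.0030, adjusted 0.013; rho -0.57, permutation p = 0.0010, adjusted 0.0046; r without the 2 farthest arrays -0.60). Its relation to the hepatocyte marker mean had r = 0.34 (permutation p = 0.019, adjusted 0.056; rho 0.41, permutation p = 0.016, adjusted 0.036; r without the 2 farthest arrays 0.37). Its relation to Thrb had r = 0.43 (permutation p = 0.023, adjusted 0.058; rho 0.47, permutation p = 0.0099, adjusted 0.025), and r was 0.31 without the 2 farthest arrays. Dio1 and Thrsp, both low after ligation, had r = 0.15 within groups (permutation p = 0.39, adjusted 0.59; rho 0.21, permutation p = 0.26, adjusted 0.47; 0.09 without the 2 farthest arrays). Thra showed none past the threshold with the other 3 genes, the markers or the nonspecific signal (adjusted permutation p of at least 0.48).

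The genes whose within-group deviations were most like each member were listed as a description, over 35 arrays and 7747 or 7748 genes above background in all groups. For Thrb, with the same limit from background, these were Ak4 (r = 0.79), Necap1 (0.78), Trim2 (0.77), Ceacam1 (0.75) and Mtss1 (0.74). Ceacam1, a cell adhesion molecule that takes part in insulin clearance by liver, was lower after ligation by -1.31 ± 0.19 in sham and -0.97 ± 0.17 in H/R rats (limma adjusted p = 8.3e-07 and 2.2e-05), while Mtss1 showed -0.14 ± 0.18 and 0.01 ± 0.16. Ak4, Necap1 and Trim2 were also called lower in both, by -0.73 ± 0.29, -0.78 ± 0.15 and -0.82 ± 0.29 in sham rats. In H/R rats their differences were -0.68 ± 0.27, -0.68 ± 0.14 and -0.88 ± 0.26. For Thrsp they were Ndufv3 (r = 0.83), C9h2orf69 (0.77), Mcfd2 (0.75), Qng1 (0.75) and Tmem205 (0.73), all 5 of which fell with ligation in sham and in H/R rats. Of all 13439 genes 22.4% were called lower and 25.3% higher in sham rats, and 22.3% and 24.7% in H/R rats. The shares among the 7747 genes considered here were not counted. Ndufv3, a subunit of respiratory complex I, fell by 0.72 ± 0.14 and 0.65 ± 0.13.

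For Dio1 the nearest were Alg14 (r = 0.75), Acan (0.71), Nagpa (0.68), Glyat (0.68) and Tp53inp2 (0.67). Glyat, the hepatic glycine conjugase, fell by 1.95 ± 0.40 in sham and 2.65 ± 0.37 in H/R rats, and Tp53inp2 by 1.07 ± 0.18 and 1.11 ± 0.16, whereas Alg14, Acan and Nagpa did not pass in either. For Thra the likeness was lower, with Sat2 (r = 0.62), Rem1 (0.56), Tmem9 (0.55), Mrpl48 (0.54) and Dmap1 (0.54). Of these Rem1 and Tmem9 rose with ligation, by 0.78 ± 0.19 and 0.77 ± 0.25 in sham rats and 0.56 ± 0.17 and 0.87 ± 0.23 in H/R rats.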

How the data were processed

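The authors deposited normalized log2 signals per probe set for 35 liver RNA samples. The sources used here do not say how they were normalized, and the labels' extract field describes histology only. Values from 1.51 to 13.79, with array medians of 3.97 to 4.29, show a log2 scale. Groups came from the labels and replicate numbers from sample order. Of 31139 probe sets, 19069 carried 1 symbol, 572 several and 11498 none. Each of 13439 genes was represented by its probe set with the highest mean. Differences were tested with limma 3.58.1 (R 4.3.3), with 1 mean per group over all arrays, eBayes and Benjamini-Hochberg adjustment per comparison at 0.05. The script was tested on simulated data. Background was the brightest of 23 nonspecific probe sets, the same one (GC25) on all 35 arrays. Bounds hold each dim array at its background and do not allow for the spread among arrays. The number of arrays limits precision. No 2 arrays were identical, and no batch is named in the labels. The number ending of the sample titles is one value in all controls and is not shared by the groups compared for ligation or for simvastatin in sham rats, so it could be a block only for hemorrhage in ligated and in simvastatin rats and for simvastatin in H/R rats.

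The members, lists and tests were chosen with earlier results of these data known, so no list is independent evidence. Pathway genes were named by adjusted p, up to 6 per list and comparison. Ncor1, Rxrg, Slc7a8 (ligation), Cyp7a1 and Hr were added after their values were seen, to complete counts. For each member the 5 genes with the most similar group-centred values were also named. Correlations used permutation within groups (scipy 1.17.1). Alternatives changed the arrays fitted, the eBayes options, the dim-gene filter, quantile normalization, centring, the probe sets used, a title-number block, the background and each array left out.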

Additional observations from a re-analysis of the deposited data

Results flagged for a closer look

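Of 54 sets of arrays (9 probe sets in 6 groups), 5 had a single array standing apart by Dixon's range criterion, and chance gives about 1 in 20. In ligated H/R rats replicate 3 was the highest for Thrb (4.39, nearest other array 3.64) and for Dio1 (4.54, nearest 4.07). Its own brightest nonspecific probe set read 4.43. Thrb on its second probe set, 1387983_PM_at, was highest in control H/R replicate 2 at 3.28 (nearest 2.74), under that array's background. Thra was lowest in simvastatin H/R replicate 3 at 4.61 (nearest 4.81), and its dim probe set 1380518_PM_s_at was highest in simvastatin sham replicate 4 at 1.98 (nearest 1.92).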

How the results depend on the processing

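The falls of Dio1 and Thrsp with ligation kept their direction and their call under every alternative run, with leave-one-out ranges of -2.38 to -1.85 and -2.37 to -2.04 in sham rats and -2.27 to -1.99 and -1.77 to -1.54 in H/R rats. The lower level of Thrb in ligated sham rats ranged from -1.80 to -1.45, and the filter at the 30th percentile removed Thrb from the test. Over the mean of its probe sets the Thrb hemorrhage difference in control rats was -0.78 and the ligated minus control difference 0.78. Thrb was above background in all groups (0 not above) when the median or, chosen after seeing the data, the second brightest nonspecific probe set was the background. Thra was not above background in 3 groups over the mean of its probe sets, and was called lower with ligation after quantile normalization (-0.37 in sham, -0.29 in H/R rats). Centring on array medians moved the median of all genes from -0.04 to -0.23 in sham and from -0.03 to -0.19 in H/R rats, and left 6 pathway genes higher in H/R rats in place of 10. Ncoa6 reversed over the mean of its probe sets (-0.016). Leaving out any 1 array changed the call of no tested difference of the 4 genes. The counts of pathway genes after ligation then ran from 7 to 9 higher and 26 to 30 lower in sham rats, and from 8 to 11 higher and 25 to 30 lower in H/R rats. With the title-number block, hemorrhage in ligated rats gave Thrb -0.46 and Dio1 -0.71 in place of -0.03 and -0.11, neither past the threshold (limma adjusted p = 0.70 and 0.35). No paired analysis was possible because replicate numbers follow sample order. The cause of these changes was not tested.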
